A study of Homo sapiens with 8 samples.

Results

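Interferon response genes were followed across 8 arrays of human myeloma cells. The group holds 42 genes whose transcription is known to rise when cells receive interferon, and they were taken by name, with earlier results of these arrays known. Every probe set of the Affymetrix U133 Plus 2.0 array that carries 1 gene symbol, that of a member, was used. This gave 71 of the 54675 probe sets, for 41 of the 42 genes and out of 19775 genes measured in all. STAT2 has no probe set that names it alone and was not analysed here. A probe set shared by IFITM2 and IFITM1 and another shared by RNF31 and IRF9 were left out.

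The arrays hold 2 established multiple myeloma lines, JJN3 and RPMI-8226, each in 4 cultures with 1 array per culture. In each line the cultures were cells infected with a lentivirus carrying an shRNA to IRE1 (IRE1 shRNA), cells infected with a lentivirus carrying an shRNA to XBP1 (XBP1 shRNA), cells infected with a lentivirus carrying a non-targeting shRNA (NT shRNA), and cells given no lentivirus (uninfected). IRE1, encoded by ERN1, is a sensor of unfolded protein in the endoplasmic reticulum whose nuclease splices the XBP1 mRNA. The infected cultures spent 16 h in virus supernatant with polybrene at 8 µg/mL, a polycation that helps virus bind to cells, and harvest is given as 96 h. The polybrene and the virus supernatant are named for the infected cultures, so lentivirus and polybrene cannot be told apart. The 3 infected cultures of a line share the vector and differ in the shRNA, and the number of shRNA sequences per target is not given in the sources used here. Each treatment thus has 2 arrays, 1 from each line (n = 2). The p-values measure only the spread left among the arrays once the line and treatment terms of each fit are taken out. In the line comparison the 4 unlike treatments of a line stand as its replicates.

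Interferons bind receptors on the cell surface that signal through Janus kinases. A complex that includes STAT2 and IRF9 then binds a DNA sequence called the interferon-stimulated response element and switches on antiviral genes. RNA sensors inside the cell, such as IFIH1, can start the same programme by inducing interferon. Many of the genes also keep some activity without interferon, and their level in unstimulated tumour lines differs from line to line. The array signal here is given as log2 values that were centred, so that each probe set has a median of 0 over the 8 arrays. A value says how high an array stands beside the other arrays for that gene, and it says nothing of how strongly the gene is expressed or of whether it lies above background.

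The start regions of the members carry the response element more often than genes at large. In RefSeq promoter windows (GRCh38.p14, 250 bases before to 50 bases after a gene's start), 34 of the 42 genes had a window, 43 windows in all. The core of the element was searched on both strands as GAAANNGAAA, where N is any base, and overlapping matches were allowed. It was present in 25 of the 34 genes (73.5%), against 4.38% of the 27305 genes with a window and 3.57% of all 35116 windows. The related gamma-activated sequence TTCNNNGAA, which reads the same on both strands and can overlap the first motif, was in 11 of the 34 (32.4%), against 9.38% of genes. HERC6, IFI35, IRF1, IRF9, OAS1, SAMD9L, SP100, STAT2 and XAF1 had windows with no match to these letters. A match is a description of the letters and not a measured binding site. The stretches of the genes that the results below turn on are given here 5′ to 3′ on the gene's strand, with the matches in capitals.
DTX3L, plus strand, chr3:122564322-122564351: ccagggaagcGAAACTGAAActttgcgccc
PARP9, minus strand, chr3:122564322-122564351: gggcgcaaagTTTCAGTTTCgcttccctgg
IFIT3, plus strand, chr10:89332425-89332497: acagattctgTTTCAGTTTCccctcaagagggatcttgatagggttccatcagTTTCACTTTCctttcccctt
IFIT5, plus strand, chr10:89414513-89414583: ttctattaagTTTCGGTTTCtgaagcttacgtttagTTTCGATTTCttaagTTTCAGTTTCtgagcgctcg
IFITM1, plus strand, chr11:313990-314053: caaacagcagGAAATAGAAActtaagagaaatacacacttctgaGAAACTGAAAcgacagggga
ISG15, plus strand, chr1:1013374-1013409: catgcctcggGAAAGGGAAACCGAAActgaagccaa
IFI6, minus strand, chr1:27672266-27672317: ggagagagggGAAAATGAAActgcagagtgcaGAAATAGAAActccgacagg
The windows of DTX3L and PARP9 overlap head to head over 137 bases and share a single match, so its 2 entries above are the same bases read from opposite strands. IFIT5 has 3 matches, and IFIT3, IFITM1 and ISG15 have 2 each in the windows shown; IFI6 has 3, of which 2 are shown.

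The targets of the shRNAs and the quality controls frame the values that follow. XBP1 signal on the IRE1 and XBP1 shRNA arrays was 16.8% and 45.6% of the NT shRNA array in JJN3, and 64.7% and 65.9% in RPMI-8226. ERN1 signal on the IRE1, XBP1 and uninfected arrays was 53.9%, 42.9% and 104.5% of the NT shRNA array in JJN3, and 129.8%, 36.7% and 202.6% in RPMI-8226. In RPMI-8226 the library labelled IRE1 shRNA thus lay above the NT shRNA array and below the uninfected array for the targeted mRNA, and the largest IRE1 shRNA differences are also given within each line. In both lines ERN1 signal was lower on the XBP1 than on the IRE1 shRNA array. XBP1 signal was lower on the IRE1 shRNA array, so differences between these arms are given by label. The plasma cell marker list (8 genes) had median centred values of -0.35, -0.31, 0.02 and 0.49 on the IRE1, XBP1, NT and uninfected arrays of JJN3, and of 0.19, 0.17, 0.10 and 0.50 in the same order in RPMI-8226. The 9 hybridisation controls stood 0.43 above the median on the JJN3 IRE1 shRNA array and between -0.14 and 0.08 on the other 7. The 15 poly-A controls, RNAs added to the sample before labelling, stood at 0.40 on the XBP1 shRNA array and 0.24 on the NT shRNA array of RPMI-8226 and between -0.13 and 0.08 on the other 6. The 3′ minus 5′ difference of the actin control was 0.13 to 0.42 on the JJN3 arrays and -0.61 to -0.43 on the RPMI-8226 arrays, so it moves with the line.

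The members differed most between the 2 lines, and in both directions. OAS1, OAS2 and IFITM1 were lower in JJN3 by more than 2 log2 units, while SAMD9L, PARP9, SP100 and PARP14 were higher by more than 2. Of the 41 genes, 12 were higher and 18 lower in JJN3 than in RPMI-8226 at matched treatment (limma, treatment as a block, Benjamini-Hochberg over 19775 genes, threshold 0.05). These 30 are 73.2% of the members, against 68.9% of all genes (25.4% higher and 43.5% lower), so the share of members that differed is near the background. The split depends on scaling: with quantile normalization of the deposited values it was 15 higher and 11 lower, and with cyclic loess 13 higher and 12 lower. The median difference over all genes was -0.23 as deposited, -0.10 after quantile normalization and -0.05 after cyclic loess, and the median of the members stood 0.12, 0.13 and 0.08 above it. At an absolute difference of at least 2-fold, 8 members were called higher and 5 lower (31.7%), against 13.2%, 8.02% and 21.2% of all genes. The 4 JJN3 arrays all lay above the 4 RPMI-8226 arrays for 10 members and all below for 12, together 53.7%, against 21.2%, 37.5% and 58.7% of all genes.

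**Figure D1:**
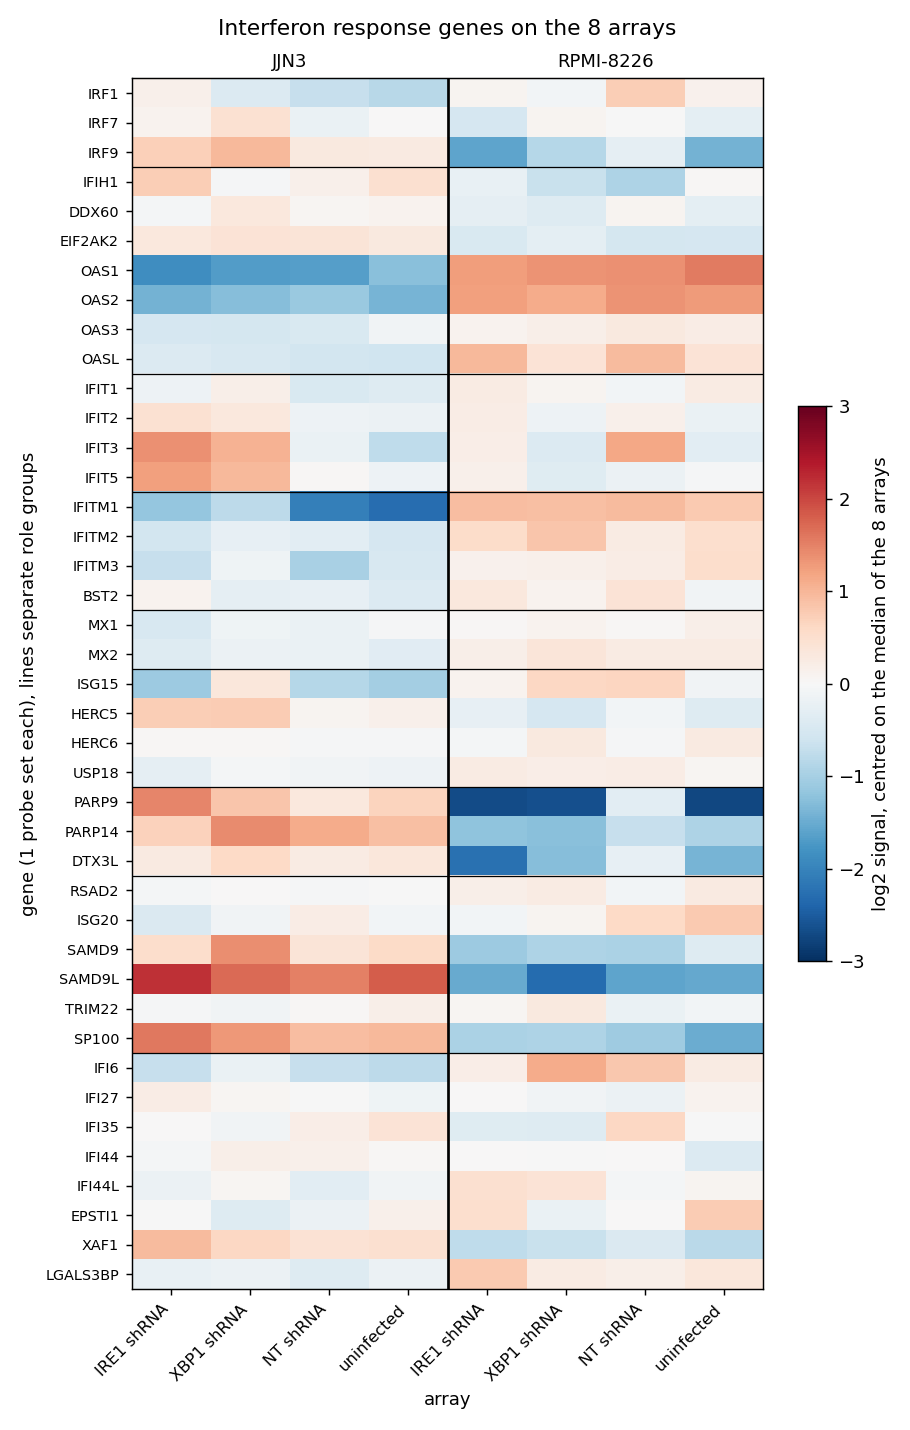
Centred log2 signal of the 41 measured interferon response genes (rows, 1 probe set per gene, grouped by role) on the 8 arrays (columns, JJN3 on the left and RPMI-8226 on the right). Colour shows the distance from the gene's own median over the arrays; the OAS1, OAS2 and IFITM1 rows are low across JJN3, the SAMD9L and SP100 rows are high there, and PARP9 on the RPMI-8226 NT shRNA array stands out within its line.

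The oligoadenylate synthetases were lower in JJN3. These enzymes make short oligoadenylates on double-stranded RNA, which switch on RNase L. OAS1 had centred values of -1.86, -1.67, -1.64 and -1.25 on the IRE1, XBP1, NT and uninfected arrays of JJN3, against 1.25, 1.35, 1.38 and 1.56 on the same arrays of RPMI-8226. The lines do not overlap, and the spread within each line is small beside the difference of -2.99 ± 0.11 log2 units (SE; adjusted p = 3.56e-08). OAS2 had -1.41, -1.28, -1.12 and -1.39 in JJN3, against 1.23, 1.12, 1.35 and 1.29 in RPMI-8226, a difference of -2.54 ± 0.11 (limma, adjusted p = 1.03e-07). All 4 JJN3 arrays lay below all 4 of RPMI-8226 here too. OASL, a relative that lacks the synthetase activity, differed by -1.19 ± 0.13, and OAS3 by -0.59 ± 0.12, though OAS3 was -0.14 and not called with its probe set of highest mean.

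Of the other RNA sensors, EIF2AK2 and IFIH1 passed the test with higher values in JJN3, each by only some of its probe sets. EIF2AK2 encodes PKR, a kinase that halts translation when it binds double-stranded RNA. Its values were 0.31, 0.41, 0.39 and 0.30 on the IRE1, XBP1, NT and uninfected arrays of JJN3, against -0.47, -0.30, -0.52 and -0.51 in RPMI-8226. The difference of 0.81 ± 0.10 (limma, adjusted p = 1.42e-04) came from 1 of its 3 probe sets, since with the probe set of highest mean it was -0.02 and not called. IFIH1, the sensor MDA5, was higher in JJN3 by 0.79 ± 0.13 with the probe set used. By another of its probe sets the lines overlapped. That probe set had 0.09, 0.39, -0.24 and 0.16 on the IRE1, XBP1, NT and uninfected arrays of JJN3. In RPMI-8226 it had -0.25, 0.39, -0.30 and -0.09. DDX60, a helicase that assists RNA sensing, differed by 0.32 ± 0.13 and did not pass the test (limma, adjusted p = 0.0562).

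The genes of the IFITM proteins, which block the fusion of virus with cell membranes, all had lower signal in JJN3. IFITM1 had values of -1.16, -0.79, -2.05 and -2.28 on the IRE1, XBP1, NT and uninfected arrays of JJN3, against 0.91, 0.90, 0.95 and 0.79 in RPMI-8226. RPMI-8226 was even across treatments and JJN3 was low everywhere and lowest on its 2 control arrays. The difference was -2.46 ± 0.22, with IFITM2 at -0.94 ± 0.12 and IFITM3 at -0.83 ± 0.15. BST2, which tethers budding virions to the cell, differed by -0.38 ± 0.12, a call lost under both scalings. MX1 and MX2, GTPases that trap viral capsids, were lower by small amounts, -0.30 ± 0.11 and -0.53 ± 0.10, and the call of MX1 was lost under both scalings as well.

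The ADP-ribosylation genes were higher in JJN3, DTX3L not under every scaling. PARP9 and DTX3L form a complex that modifies ubiquitin, and PARP14 transfers single ADP-ribose units. PARP14 had 0.68, 1.41, 1.11 and 0.89 on the IRE1, XBP1, NT and uninfected arrays of JJN3, against -1.21, -1.26, -0.68 and -0.92 in RPMI-8226, a difference of 2.04 ± 0.16 (limma, adjusted p = 4.57e-06). PARP9 had 1.46, 0.84, 0.30 and 0.67 in JJN3, against -2.68, -2.64, -0.30 and -2.74 in RPMI-8226. The lines do not overlap, but the NT shRNA array of RPMI-8226 stands close to JJN3, and the mean difference of 2.91 has a wide SE of 0.46 (limma, adjusted p = 5.01e-04). DTX3L had 0.27, 0.59, 0.24 and 0.33 in JJN3, against -2.24, -1.29, -0.24 and -1.39 in RPMI-8226, a difference of 1.65 ± 0.27 that fell to 0.45 and out of the calls under cyclic loess.

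Among the other restriction factors, SAMD9L and SAMD9, neighbouring genes whose proteins restrict poxviruses and slow cell growth, were both higher in JJN3. SAMD9L had 2.20, 1.70, 1.51 and 1.82 on the IRE1, XBP1, NT and uninfected arrays of JJN3, against -1.51, -2.30, -1.57 and -1.53 in RPMI-8226. With 3.54 ± 0.15 log2 units (limma, adjusted p = 1.14e-07) this was the largest absolute difference among the members, and its 3 probe sets all showed it. SAMD9 differed by 1.55 ± 0.19. SP100, a nuclear body protein, was higher in JJN3 by 2.30 ± 0.12 (limma, adjusted p = 4.25e-07), and its 6 probe sets ran the same way. ISG20, an RNA exonuclease, was lower by 0.45 ± 0.13 on the log2 scale in JJN3, and lost its call under both scalings. RSAD2, which encodes viperin, and TRIM22, a ubiquitin ligase, differed by -0.18 ± 0.11 and 0.00 ± 0.14 and did not pass the test.

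The transcription factors and the ISG15 system were split. IRF9, the DNA-binding part of the complex that reads the response element, had 0.72, 0.97, 0.30 and 0.27 on the IRE1, XBP1, NT and uninfected arrays of JJN3, against -1.59, -0.86, -0.27 and -1.42 in RPMI-8226, a difference of 1.60 ± 0.23 (limma, adjusted p = 3.00e-04). IRF1, which acts downstream of interferon gamma, differed by -0.67 ± 0.22, and IRF7, which amplifies interferon production, by 0.28 ± 0.14 without passing the test. ISG15, a ubiquitin-like modifier, had -1.08, 0.33, -0.85 and -1.03 in JJN3, against 0.12, 0.63, 0.65 and -0.12 in RPMI-8226, and the arrays overlap through the JJN3 XBP1 shRNA array. Its mean difference was -0.98 ± 0.18 (limma, adjusted p = 0.0012). HERC5, the ligase that attaches ISG15, ran the other way at 0.74 ± 0.17, USP18, the protease that removes it, was at -0.32 ± 0.11, and HERC6, a relative of HERC5, was at -0.11 ± 0.12 without passing the test.

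Of the remaining induced genes, IFI6, a small protein of the endoplasmic reticulum and mitochondria, was lower in JJN3 by 1.17 ± 0.13 on the log2 scale, and XAF1, a factor that promotes cell death, was higher by 1.30 ± 0.14. LGALS3BP, a secreted glycoprotein, differed by -0.62 ± 0.13, EPSTI1 by -0.37 ± 0.12 and IFI44L by -0.35 ± 0.12, the last 2 not called under either scaling. IFI27, IFI35 and IFI44 did not pass the test and differed by 0.08, 0.16 and 0.18. The genes of the IFIT proteins, which bind the ends of foreign RNA, had small mean differences. IFIT5 passed at 0.63 ± 0.22, while IFIT1 at -0.33 ± 0.14, IFIT2 at 0.10 ± 0.14 and IFIT3 at 0.19 ± 0.40 did not. By the probe set used, the IFIT3 mean hides opposite directions: JJN3 was at least 2-fold higher under IRE1 and XBP1 shRNA and at least 2-fold lower under NT shRNA. By the second IFIT3 probe set JJN3 had 0.43, 0.29 and -0.07 on the IRE1, XBP1 and NT shRNA arrays. RPMI-8226 had 0.07, -0.07 and 0.09 there, so the gaps were far smaller. IFIT5 lost its call under cyclic loess, at 0.15. The differences of OAS1, OAS2, IFITM1, SAMD9L and SP100 stayed called under every alternative in which they were tested, and each of their probe sets was called. That of PARP14 was called with 1 value per gene, but its second probe set, fitted singly, differed by 0.07 and was not called (limma, adjusted p = 0.597).

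**Figure D2:**
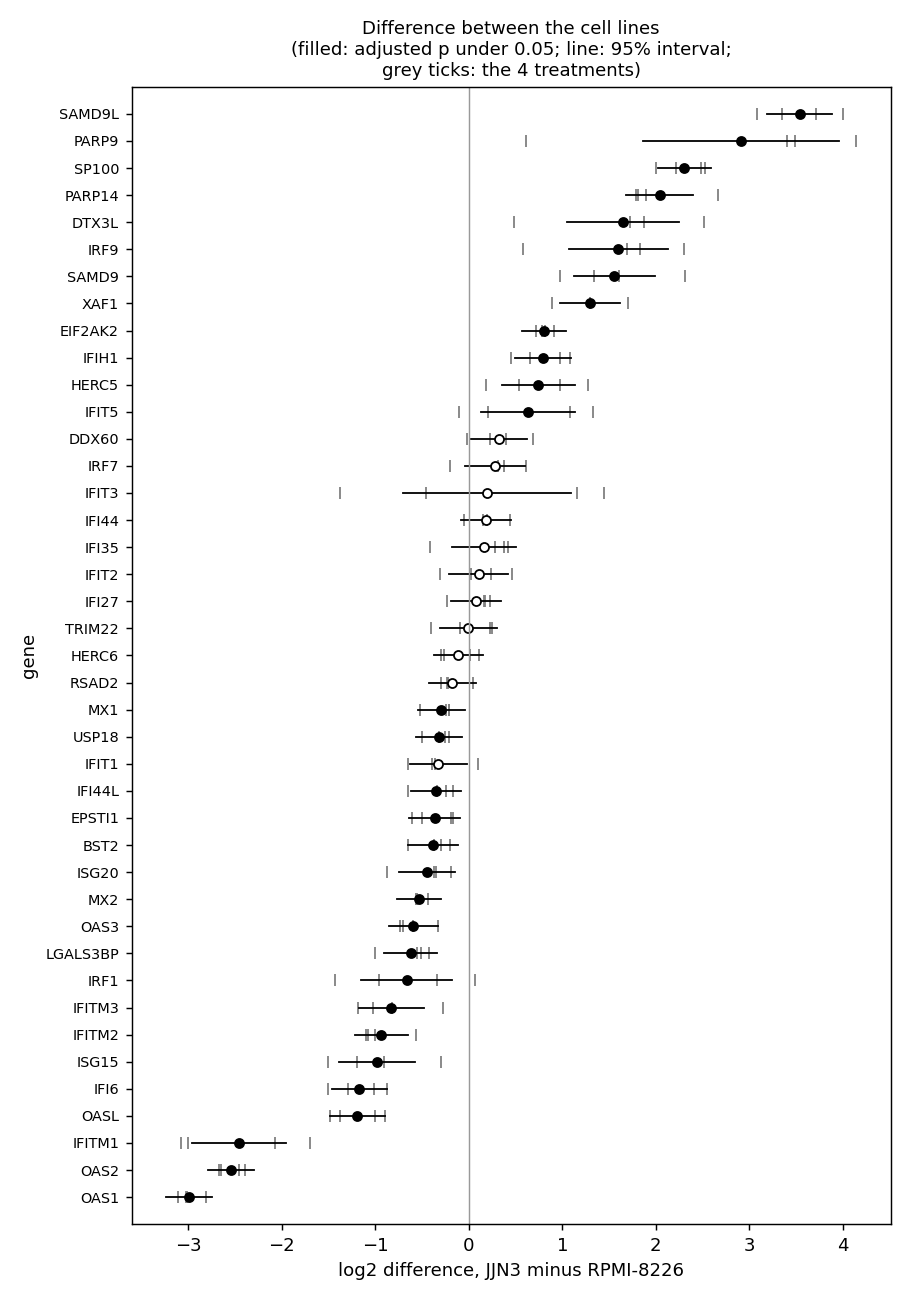
Log2 difference of each member between the lines (JJN3 minus RPMI-8226), ordered by size. Filled points passed an adjusted p of 0.05, black lines are 95% intervals and grey ticks are the differences at each of the 4 treatments; SAMD9L at 3.54 and OAS1 at -2.99 are the ends of the range, and PARP9 and IFIT3 have the widest intervals.

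Lentivirus with the NT shRNA was set against no lentivirus to ask what infection itself did to the interferon programme. No member passed the test (0 of 41 called; limma with the line as a block), and 0% of all genes were called. At an unadjusted p under 0.05 there were 2 members, IFIH1 and EPSTI1, both with lower values on the NT shRNA arrays, against 1164 of all genes. The second EPSTI1 probe set ran the other way in RPMI-8226, at 0.34 on the NT shRNA array against 0.14 on the uninfected array. In JJN3 it had 0.03 against 0.11. The lowest adjusted p of a member was 0.818. The members' median difference was 0.06, against 0.01 over all genes, and 25 of 41 were positive. The largest differences were those of PARP9 (1.04 ± 0.65), IFIT3 (1.02 ± 0.56), IRF9 (0.59 ± 0.33), DTX3L (0.53 ± 0.38), ISG15 (0.47 ± 0.25), IRF1 (0.38 ± 0.31), BST2 (0.34 ± 0.16) and IFI6 (0.33 ± 0.18). The most negative were those of IFIH1 (-0.63 ± 0.19), EPSTI1 (-0.55 ± 0.17), IFITM3 (-0.39 ± 0.22), SAMD9 (-0.38 ± 0.27), OAS1 (-0.29 ± 0.15), IFIT1 (-0.20 ± 0.19), LGALS3BP (-0.19 ± 0.18) and RSAD2 (-0.18 ± 0.16).

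In RPMI-8226 alone, 4 members stood at least 2-fold higher on the NT shRNA array than on the uninfected array, and in JJN3 none did (0 of 41). The background for that rule was 0.627% of all genes in RPMI-8226 and 0.0607% in JJN3. PARP9 differed by 2.44 log2 units in RPMI-8226 and by -0.36 in JJN3. IFIT3 differed by 1.48 and 0.56 in the same order, DTX3L by 1.16 and -0.09, and IRF9 by 1.15 and 0.03. With 1 array per line and treatment these within-line values have no replicate check. The poly-A controls were also high on that NT shRNA array, and their part in the result was not tested. The members that share the head-to-head promoter, PARP9 and DTX3L, were both high on that array, and the second probe set of PARP9 also had its highest RPMI-8226 value there, at -0.14 against -0.78 on the uninfected array. The second probe set of IFIT3 did not stand apart there, at 0.09 against 0.07 on the IRE1 shRNA array and -0.26 on the uninfected array.

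**Figure D3:**
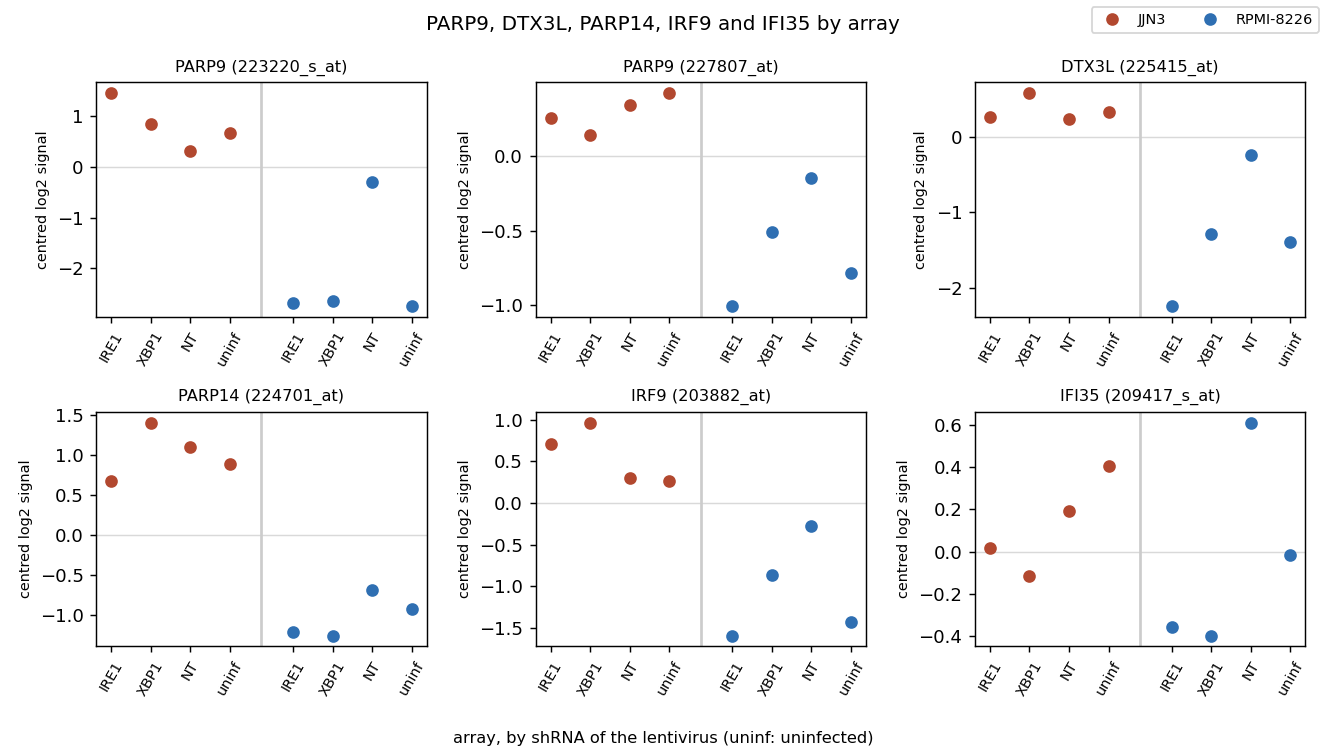
Centred log2 signal of PARP9 (both probe sets), DTX3L, PARP14, IRF9 and IFI35 on each array, JJN3 in red on the left of each panel and RPMI-8226 in blue on the right, with panels on their own scales. In all 6 panels the NT shRNA array is the highest of the 4 RPMI-8226 arrays, while in JJN3 the 4 arrays of PARP9 run from 0.30 to 1.46.

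The high PARP9 value of the RPMI-8226 NT shRNA array was not shared by the other infected arrays of the line. PARP9 was at -2.68 and -2.64 on the IRE1 and XBP1 shRNA arrays, against -2.74 on the uninfected array, so these 2 infected cultures were close to it, while the NT shRNA culture was at -0.30. When the 3 infected arrays were averaged and set against uninfected cells, again 0 of 41 members were called and 0% of all genes (limma). At an unadjusted p under 0.05 there were 8 members, against 1812 of all genes: IFIT3 (1.07 ± 0.46), ISG15 (0.54 ± 0.21), SP100 (0.40 ± 0.14), IFI6 (0.36 ± 0.15) and BST2 (0.33 ± 0.13) with positive differences, and EPSTI1 (-0.50 ± 0.14), IFIH1 (-0.40 ± 0.15) and OAS1 (-0.36 ± 0.13) with negative ones. IFITM1 (0.54 ± 0.26), PARP9 (0.53 ± 0.53), IRF9 (0.45 ± 0.27) and IFIT5 (0.40 ± 0.26) complete the 8 largest. ISG20, IFITM3, OAS3, SAMD9 and IFI35, between -0.30 and -0.20, complete the 8 most negative. All 3 infected arrays lay above the uninfected array in both lines for IFIT2, IFITM1 and BST2 (3 of 41, 7.32%, against 7.36% of all genes). They lay below it in both lines for OAS1, MX1 and EPSTI1 (again 7.32%, against 6.14%). These shares are close to the background. They use 1 probe set per gene, and the second probe sets of IFIT2, OAS1 and EPSTI1 did not keep the order in RPMI-8226. In the averaged comparison the probe sets of IFIH1 had opposite signs.

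XBP1 shRNA was compared with NT shRNA to ask what silencing XBP1 did. None of the 41 members passed the test (0 called; limma), against 2.2% of all genes, and 3 members had an unadjusted p under 0.05, against 3130 genes. These were IFI35 (-0.66 ± 0.22, adjusted p = 0.165), IFI44L (0.42 ± 0.17) and ISG15 (0.58 ± 0.25). The median of the members was 0.06, against 0.00 over all genes. IFITM1 had the largest difference, 0.60 ± 0.31, followed by ISG15, SAMD9 (0.51 ± 0.27), IFI44L, IFIT1 (0.40 ± 0.19), IFI6 (0.39 ± 0.18), IFITM3 (0.38 ± 0.22) and IRF7 (0.38 ± 0.20). The most negative after PARP9 (-0.90 ± 0.65) and IFI35 were ISG20 (-0.43 ± 0.19), DTX3L (-0.35 ± 0.38), IRF1 (-0.28 ± 0.31), SAMD9L (-0.27 ± 0.22), OASL (-0.23 ± 0.19) and EPSTI1 (-0.21 ± 0.17). Under cyclic loess IFITM1 was called at 1.14 (limma, adjusted p = 0.0267), and with the trended robust fit IFI35 was called at -0.66 (limma, adjusted p = 0.0462). Without the JJN3 NT shRNA array PARP9 was called at -2.43 (limma, adjusted p = 0.0396), but the NT shRNA group is then the RPMI-8226 array that stands apart for this gene, and its spread is assumed to be that of the other groups.

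IRE1 shRNA against NT shRNA gave the same count, 0 of 41 called (limma), against 0.0607% of all genes, with 5 members at an unadjusted p under 0.05 against 2090 genes. Those 5 were IFIT5 (0.76 ± 0.31), IFIH1 (0.65 ± 0.19), DTX3L (-0.99 ± 0.38), ISG20 (-0.66 ± 0.19) and IFI35 (-0.57 ± 0.22), with a lowest adjusted p of 0.237 for ISG20. IFITM1 (0.43 ± 0.31), SP100 (0.39 ± 0.18), LGALS3BP (0.39 ± 0.18), SAMD9L (0.38 ± 0.22), IFI44L (0.34 ± 0.17) and IFIT2 (0.34 ± 0.20) were the other large differences. PARP9 (-0.61 ± 0.65), PARP14 (-0.48 ± 0.22), IRF9 (-0.45 ± 0.33), ISG15 (-0.38 ± 0.25) and IFI6 (-0.31 ± 0.18) were the other negative ones. This comparison and that of XBP1 shRNA share the NT shRNA arrays, and it includes the library labelled IRE1 shRNA in RPMI-8226, whose ERN1 signal was above that of the NT shRNA array, though below that of the uninfected array.

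Behind these means the 2 lines ran in opposite directions for several members, by the 1 probe set used per gene. In JJN3, IFITM1, IFIT3 and ISG15 were at least 2-fold higher on the XBP1 shRNA array than on the NT shRNA array (background 1.54% of all genes), and IFIT3, IFIT5 and PARP9 were so on the IRE1 shRNA array (background 0.895%). In RPMI-8226, PARP9, IFIT3, DTX3L and IFI35 were at least 2-fold lower on the XBP1 shRNA array (background 1.98%), and PARP9, DTX3L and IRF9 were so on the IRE1 shRNA array (background 0.592%). For IFIT3 the XBP1 shRNA array minus the NT shRNA array was 1.25 in JJN3 and -1.57 in RPMI-8226, and the IRE1 shRNA array minus the NT shRNA array was 1.58 and -0.95. By its second probe set IFIT3 had 0.07, -0.07 and 0.09 on the IRE1, XBP1 and NT shRNA arrays of RPMI-8226, so the drop there was far smaller. For PARP9 the XBP1 shRNA difference was 0.54 in JJN3 and -2.34 in RPMI-8226, and the IRE1 shRNA difference was 1.15 and -2.38. By its second probe set PARP9 had 0.26, 0.14 and 0.34 on the IRE1, XBP1 and NT shRNA arrays of JJN3, with no rise. In RPMI-8226 that probe set had -1.01, -0.51 and -0.14 in the same order. The IFIT3 and PARP9 differences in RPMI-8226 rest on the single NT shRNA array, on which both genes were high by the probe sets used. Against the uninfected array of RPMI-8226 instead, no member reached 2-fold in either direction on either silenced array (0 of 41). The background there was 1.35% higher and 2.92% lower on the XBP1 shRNA array, and 0.172% higher and 0.278% lower on the IRE1 shRNA array.

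**Figure D4:**
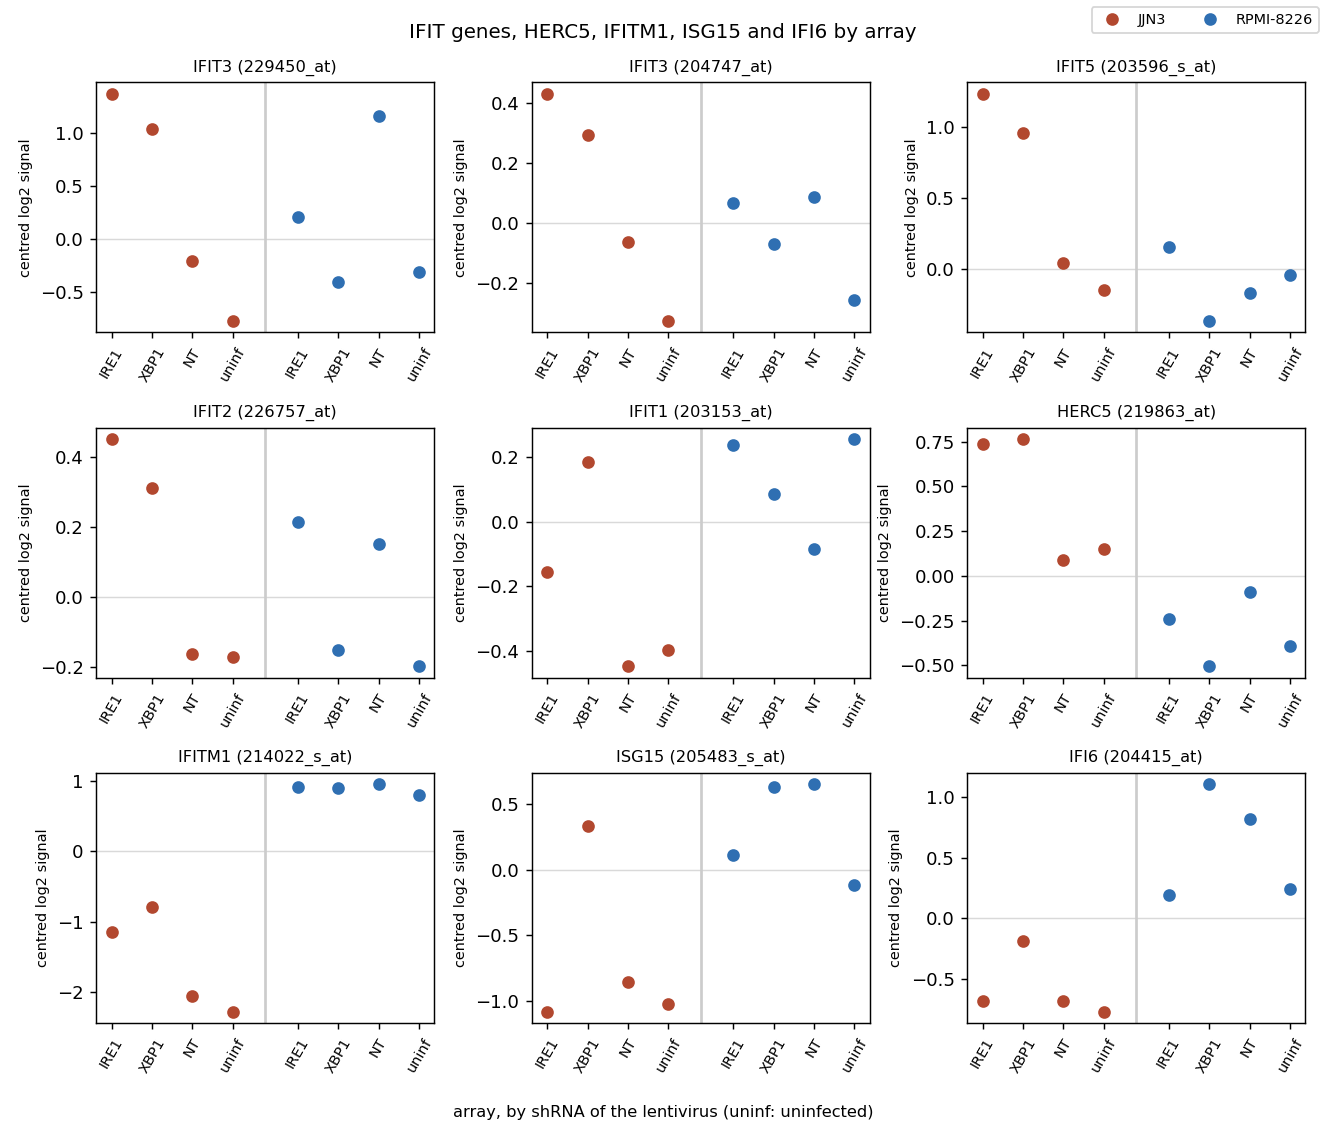
Centred log2 signal of the IFIT genes (both probe sets of IFIT3), HERC5, IFITM1, ISG15 and IFI6 on each array, JJN3 in red on the left of each panel and RPMI-8226 in blue on the right, with panels on their own scales. In JJN3 the IRE1 and XBP1 shRNA arrays lie above the NT shRNA and uninfected arrays in the IFIT, HERC5 and IFITM1 panels, while ISG15 is high on the XBP1 shRNA array alone, at 0.33.

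When the silenced arrays of a line (IRE1 and XBP1 shRNA) were set against its controls (NT shRNA and uninfected), the largest differences in JJN3 were those of IFIT3, IFITM1 and IFIT5. IFIT3 had 1.37 and 1.04 on the IRE1 and XBP1 shRNA arrays of JJN3, against -0.21 and -0.77 on the NT shRNA and uninfected arrays. In RPMI-8226 the same arrays gave 0.21 and -0.41, against 1.16 and -0.31. The silenced arrays were thus above both controls in JJN3 and lay between them or just below in RPMI-8226. The mean difference was 1.69 in JJN3 and -0.52 in RPMI-8226.

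IFIT5 had 1.24 and 0.96 on the IRE1 and XBP1 shRNA arrays of JJN3, against 0.04 and -0.15 on the NT shRNA and uninfected arrays. In RPMI-8226 it had 0.16 and -0.37, against -0.17 and -0.04, with the groups overlapping. The mean difference was 1.15 in JJN3 and 0.00 in RPMI-8226, and the second IFIT5 probe set gave the same picture, with 0.99 and 0.98 in silenced JJN3 cells, against -0.11 and -0.47 in control cells. IFITM1 differed by 1.19 in JJN3 and by 0.04 in RPMI-8226. IFIT2 differed by 0.55 and 0.05, IFIT1 by 0.44 and 0.08, and HERC5 by 0.63 and -0.13. The second IFIT3 probe set had the same order of arrays in JJN3 over a smaller range, 0.43 and 0.29 in silenced cells, against -0.07 and -0.33 in control cells. In RPMI-8226 it had 0.07 and -0.07 in silenced cells, against 0.09 and -0.26 in control cells.

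Over the whole group, both silenced arrays of JJN3 lay above both control arrays for 16 of 41 members (39%), against 18.9% of all genes, and below them for 5 (12.2%), against 21.8%. The 16 were the 4 IFIT genes, IRF1, IRF7, IRF9, OASL, IFITM1, HERC5, HERC6, PARP9, SP100, IFI6, IFI27 and XAF1. The 5 were OAS1, OAS3, ISG20, TRIM22 and IFI35. These counts use 1 probe set per gene, and other probe sets did not always give the same order. By its second probe set PARP9 had 0.26 and 0.14 on the silenced arrays of JJN3, below 0.34 and 0.43 on the controls. At least 1 other probe set each of OASL, XAF1 and SP100, and of OAS1 and ISG20, gave overlapping groups in JJN3. In RPMI-8226 both silenced arrays lay above both controls for 5 members (12.2%), against 18.5% of all genes, and below them for 8 (19.5%), against 14.7%. The members are not independent of each other, and the arrays of a line are single cultures. The members' median difference was 0.14 in JJN3 and -0.02 in RPMI-8226, against -0.01 and 0.01 over all genes. The plasma cell markers and, on the JJN3 IRE1 shRNA array, the hybridisation controls moved on the same JJN3 arrays, as given above, and their part in the result was not tested.

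The test of the mean over both lines called no member (0 of 41, against 0% of all genes; limma), with 6 at an unadjusted p under 0.05 against 1992 genes. Those were ISG20 (-0.51 ± 0.14), IFI35 (-0.51 ± 0.15), SP100 (0.42 ± 0.12), IFITM1 (0.61 ± 0.22), IFI44L (0.29 ± 0.12) and IFIT5 (0.58 ± 0.23), with a lowest adjusted p of 0.248. ISG20 and IFI35 had negative differences in both lines, -0.34 and -0.35 in JJN3 and -0.69 and -0.67 in RPMI-8226. IFIT3 (0.58 ± 0.47), ISG15 (0.33 ± 0.30), IFIT2 (0.30 ± 0.15) and IFIT1 (0.26 ± 0.14) had the other large positive means, and DTX3L (-0.40 ± 0.32), OAS1 (-0.25 ± 0.12), PARP9 (-0.24 ± 0.52), EPSTI1 (-0.21 ± 0.21), PARP14 (-0.19 ± 0.18) and OAS3 (-0.18 ± 0.11) the other negative ones.

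Whether the lines differed in the silencing effect was tested as an interaction, in which the 2 unlike treatments on each side of a line stand as replicates. No member passed (0 of 41 called, against 0% of all genes; limma), so the difference between the lines is not established for any gene by this test. At an unadjusted p under 0.05 there were 5 members, against 943 genes, all with the larger value in JJN3. IFIT3 had an interaction of 2.22 ± 0.64 (limma, adjusted p = 0.920), IFITM1 1.16 ± 0.25 (limma, adjusted p = 0.813), IFIT5 1.15 ± 0.29 (limma, adjusted p = 0.846), IRF1 1.06 ± 0.36 and HERC5 0.77 ± 0.23. PARP9 (1.81 ± 0.91), DTX3L (1.09 ± 0.57), IRF9 (0.93 ± 0.52) and SAMD9 (0.80 ± 0.42) had large values with large errors. TRIM22 was the most negative at -0.49 ± 0.21, and IFITM2, IFI44L, IFI44, LGALS3BP, MX1, OAS1 and OAS3 followed between -0.31 and -0.12. Of the 21 members with several probe sets, 11 had probe sets of opposite sign in this interaction, SAMD9, IFI44 and OAS1 among them. The members' median interaction was 0.23, against -0.02 over all genes, and 29 of 41 were positive. In the interaction for the lentivirus effect the uninfected side of each line is 1 array with no spread of its own, assumed to vary like the infected arrays, so its count says little. It called 0 of 41 (0% of all genes; limma), with 0 members at an unadjusted p under 0.05 against 293 genes. Its largest values were those of IFIT5 (0.98 ± 0.61), IFIT3 (0.87 ± 0.98), IFITM1 (0.82 ± 0.58) and SAMD9 (0.78 ± 0.51), and its most negative that of PARP9 (-0.66 ± 1.25).

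**Figure D5:**
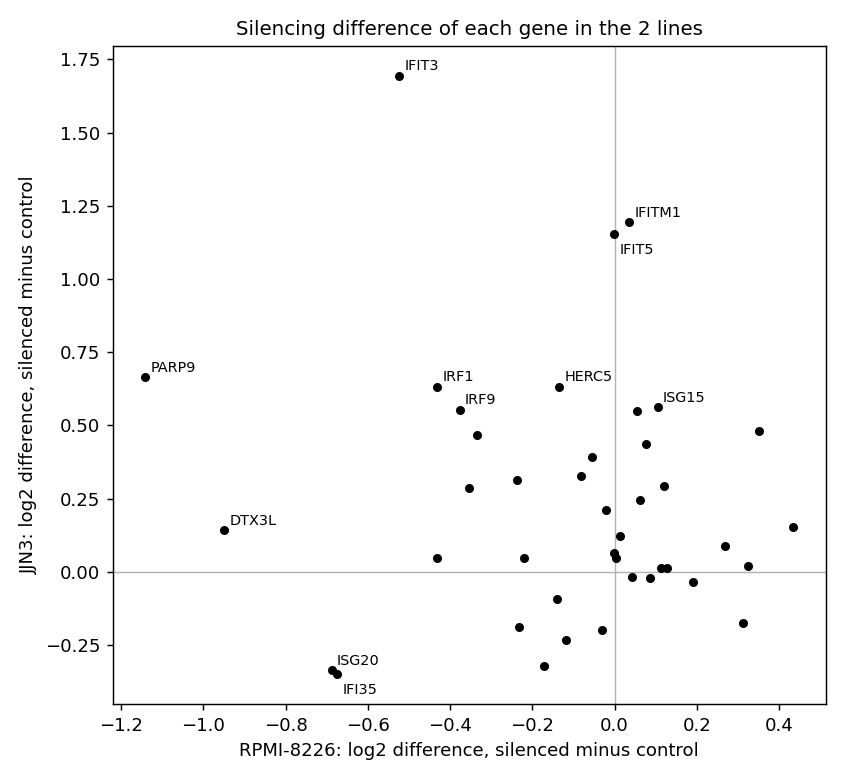
Log2 difference of silenced (IRE1 and XBP1 shRNA) minus control (NT shRNA and uninfected) arrays for each member, with JJN3 on the vertical and RPMI-8226 on the horizontal axis; each point is the difference of 2 array means. IFIT3, IFITM1 and IFIT5 stand at 1.69, 1.19 and 1.15 in JJN3 and at -0.52, 0.04 and 0.00 in RPMI-8226, and ISG20 and IFI35 are below 0 in both lines.

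The 2 silencing arms were also set against each other. IRE1 shRNA minus XBP1 shRNA called no member (0 of 41, against 3.32% of all genes; limma), but 6 had an unadjusted p under 0.05, against 3141 genes. The lowest adjusted p-values were 0.0785 for IFI6 (-0.70 ± 0.18) and 0.0804 for ISG15 (-0.96 ± 0.25), both with lower values under IRE1 shRNA. ISG15 had -1.08 on the IRE1 shRNA array of JJN3, against 0.33 on its XBP1 shRNA array, and 0.12 against 0.63 in RPMI-8226. IFI6 had -0.68 against -0.19 in JJN3, and 0.19 against 1.10 in RPMI-8226. Both genes were thus lower in each line on the array labelled IRE1 shRNA, with a reserve on the labels in both lines. ERN1 signal, as a share of the NT shRNA array, was 53.9% on the IRE1 and 42.9% on the XBP1 shRNA array of JJN3. In RPMI-8226 these shares were 129.8% and 36.7%. SAMD9L (0.65 ± 0.22), IFIH1 (0.61 ± 0.19) and EPSTI1 (0.54 ± 0.17) had higher values under IRE1 shRNA, and IRF7 (-0.46 ± 0.20) had lower ones. The IFIH1 direction holds for the probe set used, and its other probe sets had lower values under IRE1 shRNA in both lines. By 1 of them IFIH1 had 0.46 on the IRE1 shRNA array, against 0.88 on the XBP1 shRNA array, in JJN3. In RPMI-8226 it had -0.07 against 0.07. With the trended robust fit 4 members were called by the probe set used: IFI6, ISG15, SAMD9L and IFIH1. Without the RPMI-8226 XBP1 shRNA array ISG15 was called at -1.42 (limma, adjusted p = 0.0227), but the XBP1 shRNA group is then the JJN3 array that stands apart for this gene, with the spread again assumed from the other groups. DTX3L (-0.64 ± 0.38), SAMD9 (-0.51 ± 0.27), IRF9 (-0.49 ± 0.33), PARP14 (-0.34 ± 0.22) and IFITM3 (-0.30 ± 0.22), and on the other side IFIT3 (0.47 ± 0.56), IFIT5 (0.40 ± 0.31), IRF1 (0.37 ± 0.31), OASL (0.31 ± 0.19) and BST2 (0.29 ± 0.16), were the remaining large differences.

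Of 116 further genes of the pathway that were measured (interferons, receptors and their signalling, nucleic acid sensors, negative regulators and other induced genes), a few passed the tests in which no member did. XBP1 shRNA minus NT shRNA called 2 higher and 7 lower (7.76%, against 2.2% of all genes, 0.961% higher and 1.24% lower; limma). The higher were IFNGR2 (0.96 ± 0.18), a chain of the interferon gamma receptor, and ZC3HAV1 (0.89 ± 0.19), an antiviral protein that binds viral RNA. The lower were LAMP3 (-1.18 ± 0.20), TMEM140 (-1.18 ± 0.25), AIM2 (-1.11 ± 0.19), a sensor of cytosolic DNA, LY6E (-0.99 ± 0.15), a membrane protein that limits viral entry, RBCK1 (-0.89 ± 0.17), a subunit of the linear ubiquitin ligase, APOL6 (-0.78 ± 0.16) and N4BP1 (-0.71 ± 0.15). LY6E had -0.98 on the XBP1 shRNA array, against 0.13 on the NT shRNA array, in JJN3, and -0.20 against 0.67 in RPMI-8226, lower in both lines. AIM2 had -0.85 against -0.01 in JJN3, and -0.91 against 0.47 in RPMI-8226. This count was 2 with quantile normalization and 0 to 4 when 1 array was left out (with 0 called when the NT shRNA array of RPMI-8226 was dropped), and 0 of the 9 were called without the line as a block. IRE1 shRNA minus XBP1 shRNA called 4 higher and 0 lower (3.45%, against 1.6% of all genes called higher and 3.32% in either direction). These were CXCL10 (1.66 ± 0.30), a chemokine that attracts T cells, AIM2 (1.11 ± 0.19), TRIM14 (0.89 ± 0.16) and N4BP1 (0.67 ± 0.15), and the count was 0 to 3 with 1 array left out (0 without the JJN3 IRE1 shRNA array). CXCL10 had -0.46 on the IRE1 shRNA array, against -2.36 on the XBP1 shRNA array, in JJN3, and 2.18 against 0.76 in RPMI-8226. The comparisons of IRE1 shRNA with NT shRNA, of lentivirus with uninfected cells and of silenced with control cells, and both interactions, called 0 of the 116 (limma).

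Between the lines 31 of the 116 were higher and 50 lower in JJN3 (69.8%, against 68.9% of all genes). None of the 18 interferon genes was higher and 6 were lower, against 25.4% and 43.5% of all genes. Their differences were small and ran from -0.41 for IFNA21 and IFNL1 to 0.17 for IFNA8, beside a median of -0.23 over all genes. TRAF3 (4.91), an adaptor of RNA sensing that also restrains the alternative NF-kB pathway, and MAVS (1.84), which relays the signal of IFIH1, were the highest sensors. TLR7 (-2.71), a receptor for single-stranded RNA, and STING1 (-1.43), the adaptor of DNA sensing, were the lowest. Among receptors and signalling genes JAK1 (1.38) and IFNAR2 (0.92) stood highest and IFNLR1 (-1.72) and IRF8 (-1.53) lowest. Of the negative regulators SOCS3 (2.01) and NLRC5 (1.31) were highest, SAMHD1 (-3.08) and PTPN6 (-1.52) lowest. Of the other induced genes, RNF213 (3.20) and GBP1 (3.17) stood highest and LAMP3 (-4.37) and CXCL10 (-2.76) lowest. All values in this paragraph are log2 differences, JJN3 minus RPMI-8226.

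Most genes with several probe sets gave the same sign of the line difference by each of them. Fitted singly and adjusted over 41097 probe sets, 48 of the 71 member probe sets were called (23 higher and 25 lower in JJN3), against 58.5% of all. Of the 21 genes with several probe sets, 5 had probe sets of opposite sign (EIF2AK2, HERC6, IFI44, IFIT2 and XAF1), 0 were called both ways, and 8 were called by only some of their probe sets (EIF2AK2, IFIH1, IFIT2, IFIT5, ISG20, OAS3, PARP14 and XAF1). In the other comparisons 0 of the 71 were called, and signs disagreed more often. Of the 21 genes, 8 had probe sets of opposite sign for NT shRNA minus uninfected, 6 for lentivirus minus uninfected and 7 for XBP1 shRNA minus NT shRNA. There were 12 for IRE1 shRNA minus NT shRNA, 9 for IRE1 shRNA minus XBP1 shRNA and 6 for silenced minus control. The lentivirus and silencing interactions had 9 and 11. For PARP9 the line difference was 2.91 by the probe set used and 0.91 by the other, so its size depends on the probe set while its direction does not.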

How the data were processed

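RNA of 8 cultures was measured on 1 array each. The deposited values are log2 signals made by the authors with RMA, per the submitters' processing notes, with no version given. The notes name neither the log base, taken here as 2, nor the centring. As deposited, each of the 54675 probe sets already has its median across arrays at 0, so the values give differences between arrays and no level. The number of arrays limits the precision. Probe sets were named by the array annotation: 41097 had 1 symbol (19775 genes), 1801 had several and 11777 were not listed. Entrez identifiers of 41043 matched the RefSeq gene table, and 0 symbols were updated. No pair of arrays was identical.

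Each gene was represented by its probe set of highest SD over the 8 arrays. The tests used limma 3.58.1 under R 4.3.3 (lmFit with eBayes, two-sided, Benjamini-Hochberg over 19775 genes, threshold 0.05) and the script was tested on simulated data. Treatments were compared with the cell line as a block; the replicate number marks the line, so the pairing comes from the same cell line. Lines were compared with treatment as a block. A gene called higher or lower had an adjusted p under 0.05. All 42 members were accounted for, and each comparison names those called and the 8 largest differences in each direction, with values for those that add to the text. In the pathway lists those called are named, and for the line difference the 2 most extreme in each direction. The members, lists and named genes were chosen with earlier results of these data known. The alternatives were another probe set rule, quantile normalization, cyclic loess, a trended robust fit, a filter on low SD, no block and each array left out.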

Additional observations from a re-analysis of the deposited data

Results flagged for a closer look

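For 5 of the 82 sets of 4 arrays examined (41 genes in 2 lines), 1 array stood apart from the other 3 by a gap, as a share of the whole range, above Dixon's 95% critical value. Chance gives about 1 in 20 such sets, here 4.1 of 82. PARP9 on the NT shRNA array of RPMI-8226 was 2.34 log2 units above the nearest other array of the line. ISG15 on the XBP1 shRNA array of JJN3 was 1.18 above the nearest, and IFI6 on the same array was 0.49 above. SAMD9L on the XBP1 shRNA array of RPMI-8226 was 0.73 below the nearest. IFI44 on the uninfected array of RPMI-8226 was 0.38 below. Each value rests on 1 array.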

How the results depend on the processing

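The count of members called stayed at 0 for NT shRNA minus uninfected, lentivirus minus uninfected, IRE1 shRNA minus NT shRNA, silenced minus control and both interactions, under every alternative run. For XBP1 shRNA minus NT shRNA it was 1 under cyclic loess and 1 with the trended robust fit, and 0 to 1 when 1 array was left out. For IRE1 shRNA minus XBP1 shRNA it was 4 with the trended robust fit and 0 to 1 with 1 array left out. For the lines it was 25 to 32 over all alternatives and 25 to 29 with 1 array left out, against 30; leaving out 1 array of a treatment there removes that treatment. Calls lost in the line comparison on leaving out at least 1 treatment were those of BST2, EPSTI1, IFI44L, IFIT5, IRF1, ISG20, MX1 and USP18. The sign of EIF2AK2 turned to -0.0179 with its probe set of highest mean.

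The median of the members was 0.17 for NT shRNA minus uninfected with genes of low SD left out (-0.10 to 0.12 with 1 array left out, against 0.06). For lentivirus minus uninfected it was 0.0510 with the probe set of highest mean and 0.0519 with the mean of the probe sets, 0.0322 to 0.113 with 1 array left out. With 1 array left out it was -0.01 to 0.11 for XBP1 shRNA minus NT shRNA, -0.11 to 0.16 for IRE1 shRNA minus NT shRNA, -0.103 to 0.0689 for IRE1 shRNA minus XBP1 shRNA and 0.0545 to 0.0924 for silenced minus control. For the lines it turned from -0.11 to 0.0319 (quantile normalization), 0.0292 (cyclic loess), 0.164 (low SD left out) and 0.0111 (probe sets fitted singly), with -0.161 to -0.0898 on leaving out 1 array. The cause was not tested.

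Without the line as a block (no replicate block) 0 members were called in the treatment comparisons, and 0 of all genes were called for XBP1 shRNA minus NT shRNA, against 436. Without treatment as a block 26 members were called between the lines. Counts over all genes were higher with the trended robust fit: 871 for XBP1 shRNA minus NT shRNA, 286 for IRE1 shRNA minus NT shRNA, against 12, and 1158 for IRE1 shRNA minus XBP1 shRNA, against 657. They ranged from 0 to 350, 0 to 32 and 10 to 527 with 1 array left out. The lentivirus interaction could not be fitted without an uninfected array. With 1 array per line and treatment, small differences within a line could not be tested, and the centred values hide which genes lie near background.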
